A study of Mus musculus with 3 samples.

Results

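The 10 genes described here carry bile acid synthesis, bile acid transport and its control in the mouse liver: Cyp7a1, Cyp7b1, Cyp8b1, Cyp27a1, Slc10a1, Abcb11, Baat, Slc27a5, Nr1h4 and Nr0b2. They were chosen by symbol from 55357 genes measured, and all 10 were found. Single-cell RNA sequencing was available for 3 libraries of liver cells, 1 per condition, made with a 10x Genomics 3′ kit from hepatocytes and nonparenchymal cells mixed in equal numbers after collagenase perfusion. All mice were wild-type male C57BL/6 animals, 8 weeks old at the start, and each library pooled the cells of 2 mice. The submitters describe the CON mice as untreated. The sample details used here hold no length of time for CON, so whether their age at collection matched the other mice is not known. For 4 months, the HFD mice ate a high-fat diet in which fat supplied 60% of calories, a model of metabolic dysfunction-associated steatohepatitis. The CCl4 mice ate chow for 3 months and then received carbon tetrachloride, a liver toxin used as a fibrosis model, as intraperitoneal injections of 0.1 mL of a 10% solution 2 times a week for 4 weeks. With 1 library per condition there was no replicate, so no test across samples was made, and all intervals below are 95% intervals that cover counting error only.

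Bile acids are made from cholesterol in hepatocytes. Cyp7a1 catalyses the rate-limiting step of the classical pathway, and Cyp27a1 and Cyp7b1 carry the alternative pathway. Cyp8b1 adds the hydroxyl group that makes cholic acid. Slc27a5 and Baat join bile acids to coenzyme A and then to taurine or glycine. Slc10a1 (NTCP) takes bile acids up from sinusoidal blood, and Abcb11 (BSEP) pumps bile salts into the canaliculus. Nr1h4 (FXR) is the nuclear receptor that binds bile acids, and Nr0b2 (SHP) is a repressor that FXR induces and that lowers transcription of Cyp7a1 and Cyp8b1. In the liver lobule, Cyp7a1 is known as a gene of pericentral hepatocytes.

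The genes were measured in 4399 hepatocytes among 36990 cell barcodes, 1222 in CON, 833 in HFD and 2344 in CCl4. A hepatocyte was a cell of a hepatocyte-like cluster with 3 to 30% mitochondrial unique molecular identifiers (UMIs, each a captured RNA molecule) and no UMI of the leukocyte gene Ptprc. These cells gave 10778790 UMIs in CON, 3223476 in HFD and 8688874 in CCl4, so a level in counts per 1000000 UMIs (CPM) rests on more molecules in CON and CCl4 than in HFD. Their median depth was 8293, 3580 and 3130.5 UMIs per cell. Hepatocyte markers such as Alb and Apoa1 made up 11.3 to 17.7% of their UMIs. Summed markers of T cells were at 10.1 to 16.1 CPM in the hepatocytes, against 1450 to 3088 CPM in T cell-like cells, with 0 or 1 of the 10 markers at 0. Summed cholangiocyte markers were at 446 CPM in CON, 72.0 in HFD and 157 in CCl4, with 3 to 6 of 11 at 0, and their part in the results was not tested.

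Features of the libraries bear on every value below. In T cell-like cells, which should lack these genes, hepatocyte markers still made up 3.57% of UMIs in CON, 11.1% in HFD and 14.4% in CCl4. This background differed between libraries, and for each of the 10 genes the level or ratio is also given against T cell-like cells. Background below means the level in T cell-like cells of the same library, which need not equal the stray RNA captured with hepatocytes. Cyp7a1 in the periportal-leaning hepatocytes described below was under it, at 0.261 of it in HFD and 0.631 in CCl4. Taking it off can thus take off too much, by an amount that was not tested, and values with it taken off carry no interval. The CON library stood apart in genes of the acute-phase response, with Saa1 at 11311 CPM in hepatocytes against 522 in HFD and 167 in CCl4, and Lcn2 at 2979 CPM against 31.6 and 37.5. Whether these values fit untreated mice could not be checked against a second CON library, so every ratio to CON is a ratio to this 1 library. The part of this state in the differences from CON was not tested, and the comparison of CCl4 with HFD is the one without that library. Pericentral genes were low in CCl4 hepatocytes, with Glul at 52.1 CPM against 265 in CON and 852 in HFD. Between 36 and 52 cell barcodes were shared by each pair of libraries.

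Promoters could be read from RefSeq (build GRCm38.p6) for 6 of the 10 genes, as 7 sequences from 250 bases before to 50 bases after a start. No promoter was at hand for Cyp7a1, Cyp7b1, Baat and Slc27a5, so these genes were not searched. The 7 sequences were searched on both strands for a pair of patterns. The first was the inverted repeat of AGGTCA spaced by a single base, the form FXR is known to bind, with at most 2 mismatches. The second was NCAAGGNCA, the form bound by Nr5a2 (LRH-1), a receptor through which Nr0b2 acts. Its last letters overlap the repeat unit of the first pattern. The inverted repeat was present in Abcb11 among these promoters, with 1 mismatch, 63 bases before the start, and in 1.14% of all 32851 promoters, or 0.0822% with at most 1 mismatch. The second pattern was present in Nr0b2, 202 bases before the start, in Cyp8b1, 61 bases before the start, and in 6.68% of all promoters. A match of letters is a description and not a binding site. Bases outside this window were not searched, so a promoter without a match here may hold the pattern farther away. The 3 promoters with a match are shown, with the match in capitals. They lie at chr2:69342567-69342866 on the minus strand (Abcb11), chr4:133553126-133553425 on the plus strand (Nr0b2) and chr9:121916256-121916555 on the minus strand (Cyp8b1).
Abcb11: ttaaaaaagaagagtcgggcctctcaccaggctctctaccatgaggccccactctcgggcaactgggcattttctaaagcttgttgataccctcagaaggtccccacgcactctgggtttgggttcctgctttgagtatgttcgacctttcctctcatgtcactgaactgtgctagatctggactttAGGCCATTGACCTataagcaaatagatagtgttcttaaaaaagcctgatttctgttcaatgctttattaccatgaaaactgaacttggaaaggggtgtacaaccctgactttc
Nr0b2: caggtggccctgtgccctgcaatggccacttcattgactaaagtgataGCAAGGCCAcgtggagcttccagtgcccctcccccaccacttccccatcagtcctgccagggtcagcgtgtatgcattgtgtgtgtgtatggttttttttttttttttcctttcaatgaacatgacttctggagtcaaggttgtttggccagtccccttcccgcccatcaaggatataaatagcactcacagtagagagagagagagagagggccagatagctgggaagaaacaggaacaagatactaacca
Cyp8b1: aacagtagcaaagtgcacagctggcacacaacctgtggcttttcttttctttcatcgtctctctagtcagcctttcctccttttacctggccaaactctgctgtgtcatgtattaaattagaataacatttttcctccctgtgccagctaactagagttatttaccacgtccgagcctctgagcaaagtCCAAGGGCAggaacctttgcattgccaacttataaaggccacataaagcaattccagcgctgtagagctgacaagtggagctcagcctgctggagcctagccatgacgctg

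The level of Cyp7a1 (ENSMUSG00000028240) in hepatocytes was 9.56 CPM in CON (interval 7.80 to 11.6, 103 UMIs), 106 CPM in HFD (95.4 to 118, 343 UMIs) and 90.9 CPM in CCl4 (84.7 to 97.5, 790 UMIs). CON was thus the low library, and the intervals of CON and the other libraries did not overlap. The ratio was 11.1 for HFD against CON (8.91 to 14.0) and 9.51 for CCl4 against CON (7.74 to 11.8). CCl4 against HFD gave 0.854 (0.752 to 0.973). T cell-like cells held 2.02, 37.9 and 39.2 CPM, so the hepatocyte level was 4.73, 2.80 and 2.32 times that background. The level was 7.54, 68.5 and 51.7 CPM in CON, HFD and CCl4 once that background was taken off, which left the order of the libraries as it was. At least 1 UMI of Cyp7a1 was found in 6.30% of CON, 26.1% of HFD and 19.2% of CCl4 hepatocytes. After each cell was thinned to 1000 UMIs these shares were 1.13, 10.0 and 7.86%, against 0.219, 3.86 and 3.79% in T cell-like cells, whose median depths were 2378, 2210 and 2019 UMIs.

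Cyp8b1 (ENSMUSG00000050445), the enzyme whose promoter is shown above, was at 58.3 CPM in CON (53.8 to 63.0), 159 CPM in HFD (146 to 174) and 277 CPM in CCl4 (266 to 288). All 3 intervals were apart, with CON lowest and CCl4 highest. The ratio to CON was 2.74 in HFD (2.43 to 3.08) and 4.75 in CCl4 (4.35 to 5.20), and CCl4 against HFD gave 1.74 (1.58 to 1.91). T cell-like cells held 14.7, 76.9 and 114 CPM. With these taken off, the levels were 43.5, 82.6 and 163 CPM, and the ratio to CON was 1.90 in HFD and 3.75 in CCl4.

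Cyp7b1 (ENSMUSG00000039519), an enzyme of the alternative pathway, ran the other way. Its level was 462 CPM in CON (449 to 475), 255 CPM in HFD (238 to 273) and 58.8 CPM in CCl4 (53.8 to 64.1). CCl4 was the low library, at 0.127 of CON (0.116 to 0.139) and 0.231 of HFD (0.206 to 0.258), while HFD was at 0.551 of CON (0.511 to 0.593). Thus Cyp7b1 was 2-fold or more lower in CCl4 against each other library, and did not reach 2-fold in HFD against CON. T cell-like cells held 111, 128 and 27.3 CPM. With these taken off, CCl4 was at 0.0896 of CON and 0.249 of HFD, and HFD at 0.360 of CON. The annotated gene overlaps the predicted gene Gm23686 on its own strand.

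Cyp27a1 (ENSMUSG00000026170), which starts the alternative pathway in mitochondria, was at 34.0 CPM in CON (30.6 to 37.6), 84.4 CPM in HFD (74.7 to 95.03) and 20.6 CPM in CCl4 (17.7 to 23.9). HFD was the high library, at 2.49 times CON (2.12 to 2.92), and CCl4 was at 0.244 of HFD (0.201 to 0.296) and 0.607 of CON (0.505 to 0.727). In HFD and CCl4, however, the hepatocyte level was hardly above that of T cell-like cells, at 1.13 (0.963 to 1.32) and 1.25 (0.944 to 1.66) times. Over all hepatocytes, these levels could not be told apart from those of T cell-like cells. T cell-like cells held 9.49, 74.7 and 16.5 CPM of Cyp27a1 in CON, HFD and CCl4. HFD was no longer above CON, at 0.396 of it, once the T cell-like level was taken off. That ratio rests on a remainder of 9.68 CPM in HFD, so it is not read as HFD being lower.

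The enzymes of conjugation differed less between libraries. Slc27a5 (ENSMUSG00000030382), the bile acid coenzyme A ligase, was at 189 CPM in CON (181 to 197), 267 CPM in HFD (249 to 285) and 287 CPM in CCl4 (276 to 299). Its ratios to CON were 1.41 and 1.52, and it was 2.22 to 5.60 times as high in hepatocytes as in T cell-like cells. With the T cell-like level taken off, the ratios to CON were 0.946 in HFD and 1.10 in CCl4, both near 1. Baat (ENSMUSG00000039653), the transferase that adds the amino acid, was at 57.4 CPM in CON (53.0 to 62.1), 88.7 CPM in HFD (78.7 to 99.6) and 109 CPM in CCl4 (102 to 116). The level of Baat in T cell-like cells was 81.4 CPM in HFD and 104 CPM in CCl4. In those libraries hepatocytes could not be told apart from T cell-like cells, with ratios to them of 1.09 (0.935 to 1.27) and 1.05 (0.934 to 1.17). In CON that ratio was 2.02 (1.68 to 2.44). The ratios of Baat to CON, 1.54 and 1.90, are therefore not read as a difference between hepatocytes.

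Of the transporters, Slc10a1 (ENSMUSG00000021135) was at 300.3 CPM in CON (290.06 to 311), 540.4 CPM in HFD (515 to 566) and 347 CPM in CCl4 (335 to 360). HFD was highest, at 1.80 times CON (1.70 to 1.91), and CCl4 was at 0.643 of HFD (0.606 to 0.682). T cell-like cells held 44.2, 232 and 161 CPM. With the T cell-like level taken off, HFD was at 1.21 times CON and CCl4 at 0.729 of CON, so the place of CCl4 against CON turned with the background. Abcb11 (ENSMUSG00000027048), the export pump with the inverted repeat in its promoter, was at 130.3 CPM in CON (124 to 137), 145 CPM in HFD (132 to 159) and 151 CPM in CCl4 (143 to 159). Its intervals overlapped between CON and HFD and between HFD and CCl4. The ratios to CON were 1.11 (1.00 to 1.24) and 1.16 (1.07 to 1.25). T cell-like cells held 28.1, 86.8 and 56.9 CPM of Abcb11. With these taken off, it was at 102, 58.4 and 94.1 CPM, a ratio to CON of 0.571 in HFD and 0.921 in CCl4. The ratio thus fell below 1 in HFD and was near 1 in CCl4. Abcb11 overlaps Gm13613 and Gm13614 on the opposite strand.

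The regulators had higher CPM in HFD and CCl4 than in CON, but not once the T cell-like level was taken off in full. Nr1h4 (ENSMUSG00000047638), which codes for FXR, was at 45.0 CPM in CON (41.1 to 49.2), 76.9 CPM in HFD (67.7 to 87.1) and 70.7 CPM in CCl4 (65.2 to 76.5). HFD and CCl4 overlapped each other and lay above CON, with ratios to it of 1.71 and 1.57, short of 2-fold. Its level above T cell-like cells was 27.4, 21.8 and 21.6 CPM. Nr0b2 (ENSMUSG00000037583), which codes for SHP, was at 54.0 CPM in CON (49.7 to 58.6), 105 CPM in HFD (93.7 to 116) and 118 CPM in CCl4 (111 to 125). Its ratio to CON was 1.94 in HFD (1.69 to 2.22) and 2.18 in CCl4 (1.97 to 2.42). T cell-like cells of HFD and CCl4 held 72.4 and 86.0 CPM of Nr0b2 against 14.9 in CON. With these taken off, Nr0b2 was at 39.0, 32.2 and 31.8 CPM, and CCl4 was at 0.815 of CON. Cyp7a1, Cyp8b1 and Nr0b2 were all lowest in CON before background was taken off, and after it Cyp7a1 and Cyp8b1 alone among these 3 genes were.

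**Figure D1:**
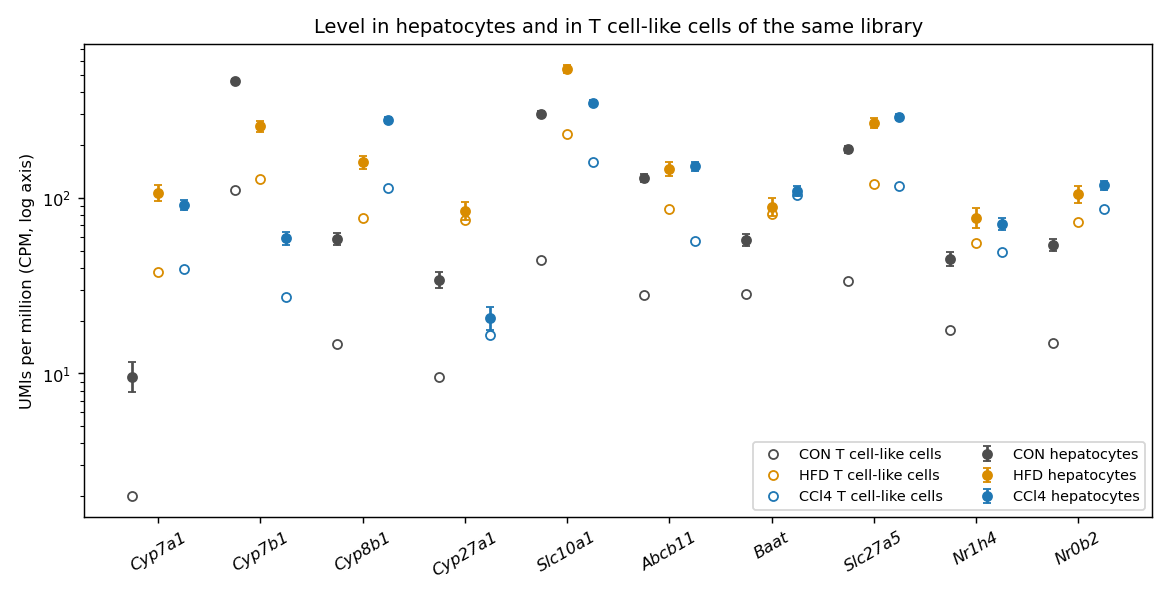
Level of the 10 genes in CPM (log axis) in hepatocytes (filled, with exact Poisson 95% intervals) and T cell-like cells (open) of the CON, HFD and CCl4 libraries. Filled and open points nearly meet for Cyp27a1 and Baat in HFD and CCl4, and are farthest apart in CON, where Slc10a1 was 6.79 times as high in hepatocytes.

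Counted together, with a call meaning a ratio of CPM of at least 2 or at most 0.5 among genes with a mean of at least 5 CPM, all 10 genes entered the comparisons. In HFD against CON, 3 of 10 were higher (Cyp7a1, Cyp8b1 and Cyp27a1) and 0 were lower, while 8.05% of 8384 genes were higher and 5.02% lower. In CCl4 against CON, 3 were higher (Cyp7a1, Cyp8b1 and Nr0b2) and 1 was lower (Cyp7b1), against 7.48% and 6.26% of all genes. In CCl4 against HFD, 0 were higher and 2 were lower (Cyp7b1 and Cyp27a1), against 2.66% and 4.75%. The median ratio of the 10 genes was 1.75, 1.55 and 0.979, where that of all genes was 1.10, 1.05 and 0.963. The median shift of all genes in HFD against CON was 0.14 on the log2 scale. The first and second comparisons share the CON library, so their likeness is not a result. With the T cell-like level taken off, 1 gene was higher (Cyp7a1) and 3 were lower in HFD against CON, where 16.8% and 26.5% of the 3127 genes above that level in both libraries were. In CCl4 against CON 2 were higher (Cyp7a1 and Cyp8b1) and 3 lower, against 18.5% and 25.5%, and in CCl4 against HFD 0 were higher and 2 lower, against 18.1% and 15.6%. Among the lower ones, Cyp27a1 and Baat rest on remainders of 4.08 to 9.68 CPM in libraries where they were at background, and they are not read as lower, which leaves Cyp7b1. T cell-like cells should lack the 10 genes but not genes in general. The shares of all genes under this correction are therefore not a like-for-like measure for the 10 genes.

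**Figure D2:**
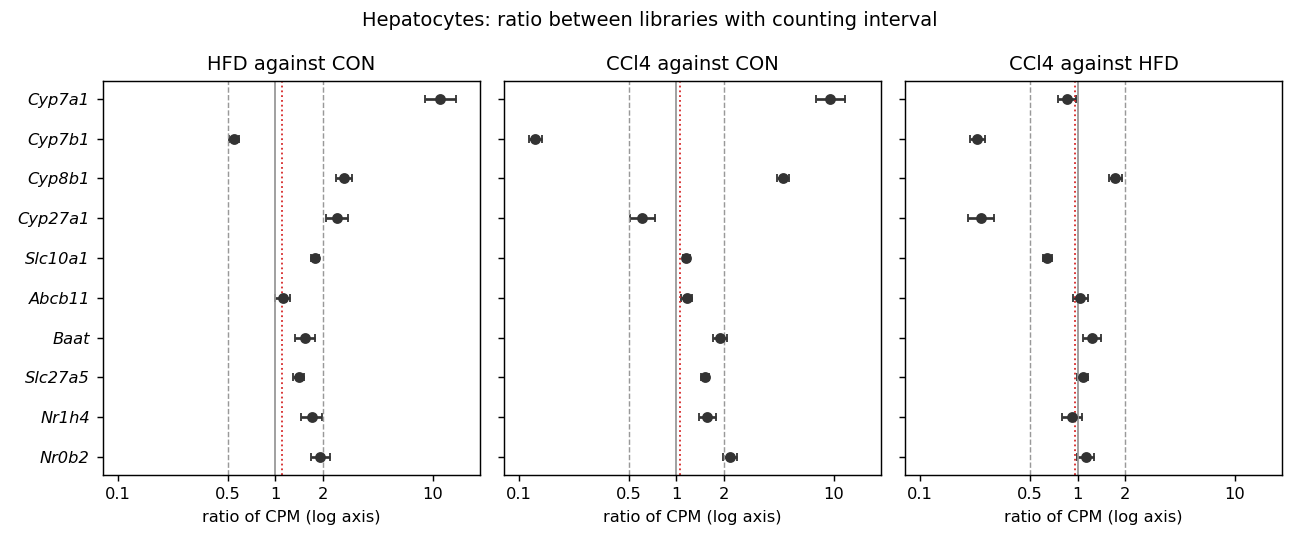
Ratio of CPM between libraries in hepatocytes for the 10 genes (log axis), with exact conditional 95% intervals for counting error. Dashed lines mark 2-fold and the dotted line the median of all genes. Cyp7a1 lies at 11.1 and 9.51 against CON and at 0.854 between CCl4 and HFD, and Cyp7b1 at 0.127 and 0.231 in CCl4.

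Within each library, hepatocytes were ordered by pericentral minus periportal genes, neither list holding any of the 10 genes, and split into an upper (pericentral-leaning), middle and lower (periportal-leaning) group of equal size. The order is relative to each library. Glul, a pericentral marker, was at 704 CPM in the upper group of CON, 2411 of HFD and 133 of CCl4, and Cyp2f2, a periportal marker, at 51.7, 83.9 and 1085 CPM, so the upper group of CCl4 was less pericentral than the others. Between 168 and 511 cells per library lay near a boundary.

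Cyp7a1 had the largest ratio between the upper and lower groups of the 10 genes in all 3 libraries. From the lower to the middle to the upper group it was at 0.447, 3.29 and 30.4 CPM in CON, at 9.91, 98.2 and 228 CPM in HFD, and at 24.8, 56.8 and 199.7 CPM in CCl4. The ratio of the upper to the lower group was 67.9 in CON, resting on 90 against 2 UMIs (18.3 to 570), 23.0 in HFD (12.9 to 45.2) and 8.07 in CCl4 (6.32 to 10.4). In the lower group the level was below that of T cell-like cells of the same library in HFD, at 0.261 of it (0.133 to 0.467), and in CCl4, at 0.631 (0.474 to 0.833). In CON it was at 0.221 (0.0236 to 1.04). The lower-group values are thus at or under background, while the upper group was at 15.04, 6.02 and 5.09 times it. Set against the upper group of CON, the upper group of HFD was at 7.51 times and that of CCl4 at 6.57 times.

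The other hydroxylases also leaned to the upper group. Cyp27a1 was at 62.1 CPM in the upper and 14.8 CPM in the lower group of CON, a ratio of 4.21 (3.16 to 5.66), and the ratio was 2.19 in HFD (1.63 to 2.98) and 3.03 in CCl4 (2.06 to 4.54). The lower groups of HFD and CCl4 were at background, at 0.774 (0.591 to 1.00) and 0.749 (0.490 to 1.13) times T cell-like cells, as were their middle groups at 0.976 and 0.799 times, so these ratios are set against background. In the upper group, unlike over all hepatocytes, Cyp27a1 stood above T cell-like cells in HFD, at 1.70 times (1.38 to 2.08), and in CCl4, at 2.27 times (1.67 to 3.11). Cyp7b1 was 2.01 times as high in the upper group in CON (1.88 to 2.14), 2.00 times in HFD (1.69 to 2.37) and 1.46 times in CCl4 (1.18 to 1.81). Cyp8b1 had a ratio of 2.41 in CON (1.98 to 2.94) and 1.93 in HFD (1.55 to 2.41). In CCl4 it was 1.07 (0.966 to 1.18), with 289, 272 and 271 CPM in the upper, middle and lower groups, so no gradient was detectable there.

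The genes for transport, conjugation and regulation were flatter or leaned to the lower group. Abcb11 was at 95.2, 134 and 151 CPM from the upper to the lower group in CON, a ratio of 0.632 (0.548 to 0.727), and the ratio was 0.687 in HFD (0.540 to 0.870) and 0.937 in CCl4 (0.820 to 1.07). Nr0b2 was at 31.4 CPM in the upper and 72.5 CPM in the lower group of CON, a ratio of 0.433 (0.340 to 0.547). It gave 1.16 in HFD (0.896 to 1.51) and 0.695 in CCl4 (0.592 to 0.814), and the HFD interval included 1. Set against the upper group of CON, Nr0b2 in the upper group was at 3.76 times in HFD and 2.98 times in CCl4. The upper group of CCl4 was at background, however, at 1.09 times T cell-like cells (0.925 to 1.28). Less that level, the upper groups of CON, HFD and CCl4 held 16.4, 45.7 and 7.61 CPM of Nr0b2, so CCl4 was no longer above CON. Nr1h4 gave 0.673, 0.913 and 0.983. Slc10a1 leaned to the upper group in CON, at 1.56 (1.44 to 1.69), to the lower group in HFD, at 0.840 (0.748 to 0.943), and gave 1.08 in CCl4 (0.993 to 1.19). Slc27a5 was at 1.19 in CON (1.07 to 1.33), 1.02 in HFD (0.860 to 1.20) and 0.856 in CCl4 (0.776 to 0.944). Baat gave 1.02, 0.811 and 0.939, with all 3 intervals including 1.

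With a call at 1.5-fold between the upper and lower groups, 5 of the 10 genes were higher in the upper group of CON (Cyp7a1, Cyp7b1, Cyp8b1, Cyp27a1 and Slc10a1) and 2 were lower (Abcb11 and Nr0b2), where 16.2% and 9.07% of all genes were. In HFD the 4 hydroxylases were higher and 0 genes were lower, against 17.3% and 17.1% of all genes. In CCl4, 2 were higher (Cyp7a1 and Cyp27a1) and 0 lower, against 6.68% and 5.21%. The median of the 10 ratios was 1.38, 1.09 and 1.02.

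**Figure D3:**
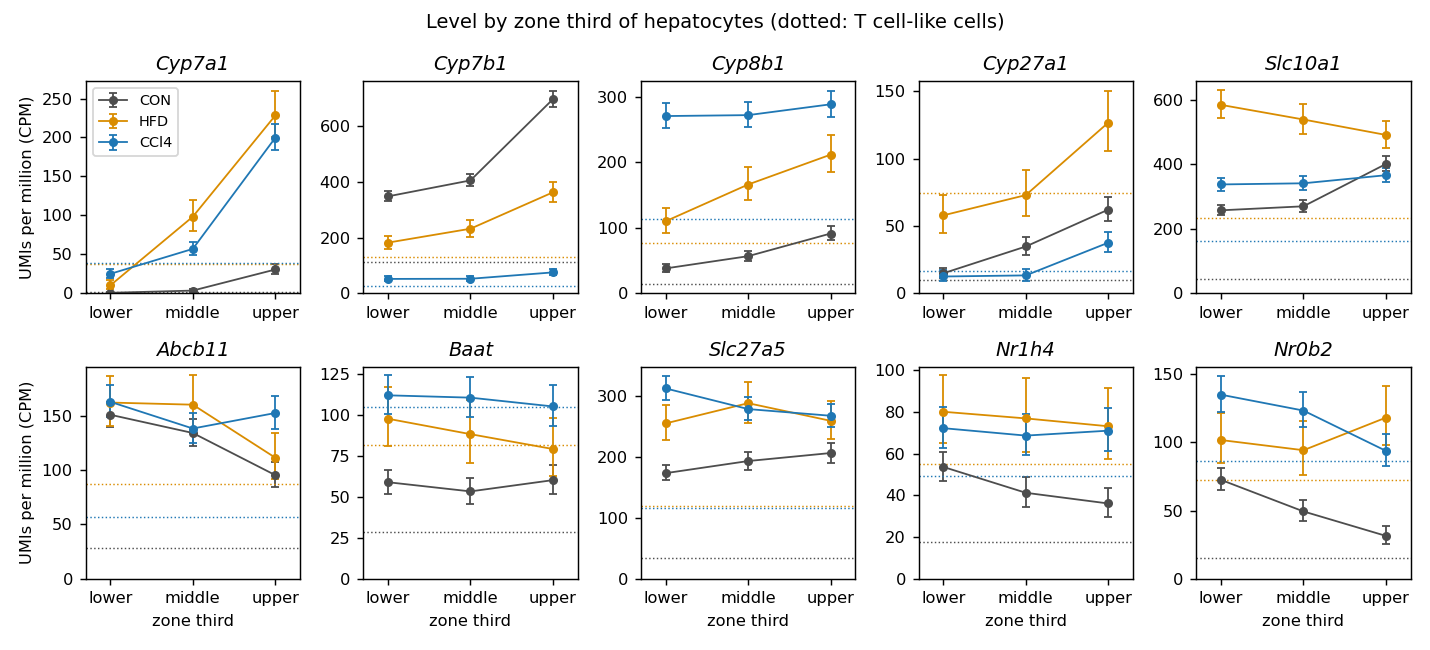
Level of each gene in CPM by zone group of the hepatocytes (lower, periportal-leaning, to upper, pericentral-leaning) in CON, HFD and CCl4, with exact Poisson 95% intervals. Dotted lines give the level in T cell-like cells of the same library. Cyp7a1 is highest in the upper group of all 3 libraries, from 30.4 CPM in CON to 228 in HFD, and Cyp8b1 in CCl4 lies between 271 and 289 CPM.

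Across the other named cell classes with at least 100 cells (9 classes in CON, 10 in HFD and 8 in CCl4), 0 classes reached the hepatocyte level of any of the 10 genes in CON. Cyp7a1 there ranged from 0 CPM in cholangiocyte-like cells to 3.84 CPM in B cell-like cells. The interval for 0 UMIs in the 115 cholangiocyte-like cells reached 4.72 CPM. In HFD and CCl4 the other classes were closer to hepatocytes. Cyp7a1 ranged from 18.5 to 48.4 CPM in HFD and from 20.8 to 74.9 CPM in CCl4, where endothelial cell-like cells were highest. Cyp27a1 was as high as or above hepatocytes in 1 class of HFD, granulocyte-like cells at 94.3 CPM, and in 3 classes of CCl4, led by plasmacytoid dendritic cell-like cells at 31.2 CPM. Baat was so in 2 classes of HFD and 2 of CCl4, and Nr1h4 in 1 class of each. A pair of clusters left without a name held 540, 392 and 827 cells, with Cyp7a1 at 6.53 CPM in CON, 121 CPM in HFD and 125 CPM in CCl4. The CCl4 value was above that of hepatocytes, with intervals of 111 to 141 against 84.7 to 97.5 CPM. In HFD the intervals overlapped, at 103 to 141 against 95.4 to 118 CPM. In CCl4 the unnamed cells were also above hepatocytes in Cyp27a1, at 60.0 against 20.6 CPM, and in Nr1h4, at 102 against 70.7 CPM. The intervals of both were apart. Baat and Nr0b2 were higher there too, at 130 and 138 CPM, with intervals that overlapped those of hepatocytes. Cyp7b1 and Cyp8b1 were lower than in hepatocytes, at 41.3 and 148 CPM. These clusters were unlike, and their parts in the levels were not tested. The cluster with 7 hepatocyte markers raised held 76, 118 and 669 of these cells, and the other was led by Elane and Mpo. Hepatocyte-like droplets with under 3% mitochondrial UMIs, 3590, 5526 and 4689 in number, held Cyp7a1 at 3.66, 52.4 and 57.8 CPM, between T cell-like cells and hepatocytes in each library. Baat and Nr0b2 in these droplets, at 106 to 119 and 109 to 126 CPM in HFD and CCl4, were at or above their levels in hepatocytes. The same held in CON. There Baat was at 77.8 CPM (73.4 to 82.4) against 57.4 (53.0 to 62.1) in hepatocytes, with intervals apart. Nr0b2 in CON was at 58.0 CPM (54.2 to 62.0) against 54.0 (49.7 to 58.6), with intervals that overlapped. Other genes in these droplets were also near their hepatocyte level. Cyp27a1 was at 84.3 CPM in HFD and 19.1 in CCl4, against 84.4 and 20.6 in hepatocytes, but lower in CON, at 22.4 against 34.0. Nr1h4 was at 71.6 against 70.7 CPM in CCl4, but lower in HFD, at 63.7 against 76.9, and in CON, at 40.3 against 45.0.

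A list of 45 other genes of the pathway was read in the same hepatocytes, and 36 had a mean of at least 5 CPM. In HFD against CON, 11 were at least 2-fold higher and 2 lower, with a median ratio of 1.37, where 8.05% and 5.02% of all genes were. In CCl4 against CON 8 were higher and 4 lower (median 1.29), against 7.48% and 6.26% of all genes, and in CCl4 against HFD 4 were higher and 7 lower (median 0.936), against 2.66% and 4.75%. With the T cell-like level taken off, an alternative added after the data had been seen, the counts were 7 higher and 7 lower, 5 and 8, and 5 and 7, among 33, 32 and 33 genes with a value. Under that correction the shares of all genes were those given above for the 10 genes, from 15.6% to 26.5%. Some listed genes were higher in T cell-like cells than in hepatocytes of CON, such as Mafg, at 37.6 against 23.1 CPM, and Acot8, at 14.1 against 4.17 CPM. For these the T cell-like level need not be background, so the corrected counts and shares are not fully alike. Canalicular transporters gave 4 of 6 higher in HFD against CON, with a median ratio of 2.29, and 3 of 6 with the T cell-like level taken off. They included the partners of the sterol exporter, Abcg5, at 13.5, 50.9 and 16.6 CPM in CON, HFD and CCl4, beside 3.43, 23.7 and 7.80 in T cell-like cells, and Abcg8, at 18.9, 78.5 and 32.0 CPM beside 5.25, 29.7 and 12.6. Abcc2 (MRP2), which exports conjugated organic anions to bile, was at 133, 338 and 328 CPM beside 16.0, 91.1 and 60.6, low in CON and at 2.10 and 2.28 times CON with that background taken off.

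The largest difference in the list was in Slco1a1, a sinusoidal uptake carrier, at 204 CPM in CON, 291 CPM in HFD and 10.7 CPM in CCl4. CCl4 was at 0.0524 of CON (0.0421 to 0.0645) and 0.0368 of HFD (0.0294 to 0.0456), and its 10.7 CPM stood beside 6.19 CPM in T cell-like cells. Its relative Slco1a4 went the other way, at 13.1, 26.7 and 61.1 CPM, beside 2.42, 12.5 and 19.7 CPM in T cell-like cells. Slco1b2, the main carrier of unconjugated bile acids, was at 1038, 1372 and 946 CPM beside 223, 596 and 339, with no call. Slc10a2, the sodium-dependent carrier best known from ileum and cholangiocytes, was at 148, 40.3 and 69.1 CPM beside 24.4, 12.5 and 21.3, highest in CON. Summed cholangiocyte markers in these hepatocytes had the same order of libraries, at 446, 72.0 and 157 CPM, and their part was not tested. The sinusoidal exporter Abcc3 was at 52.0, 171 and 85.2 CPM beside 7.27, 75.7 and 31.2, highest in HFD.

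Among the enzymes of the list, Cyp2c70, which makes muricholic acids in mice, was at 360 CPM in CON, 342 CPM in HFD and 296 CPM in CCl4, with no call. T cell-like cells held 69.3, 148 and 165 CPM of it, and with these taken off CCl4 was at 0.449 of CON. Cyp39a1, an oxysterol hydroxylase, was at 9.28, 10.9 and 27.5 CPM beside 1.62, 4.89 and 13.5, highest in CCl4. It was short of 2-fold in CCl4 against CON with that background taken off. Sult2a8, a bile acid sulfotransferase, was at 327, 539 and 206 CPM, beside 153, 445 and 174 CPM in T cell-like cells. Hsd3b7, which acts after Cyp7a1, had 2 UMIs in CON, 0 in HFD and 4 in CCl4, too few for a comparison.

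Among the regulators, Nr5a2 (LRH-1), the receptor of the second promoter pattern, was at 156, 92.4 and 70.1 CPM beside 34.1, 41.1 and 29.1 in T cell-like cells, highest in CON and at 0.448 of it in CCl4 (0.408 to 0.492). Cebpb, a transcription factor of the acute-phase response, was at 1379, 437 and 498 CPM beside 585, 385 and 396. Nr1i3 (CAR) was at 18.8, 72.6 and 29.3 CPM beside 10.9, 36.4 and 18.1, highest in HFD. Ppargc1a, a coactivator of fasting genes, was at 10.7, 32.0 and 49.3 CPM beside 2.22, 9.19 and 16.7. Klb, the co-receptor for the gut hormone FGF15, was at 5.66, 12.7 and 15.8 CPM beside 0.808, 4.30 and 3.67. It was called higher than CON in both HFD, at 2.25 times (1.47 to 3.39), and CCl4, at 2.79 times (2.05 to 3.83), but at 1.73 and 2.49 times with the T cell-like level taken off. Its partner Fgfr4 was at 16.1, 17.1 and 41.9 CPM beside 2.42, 9.78 and 9.87.

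**Figure D4:**
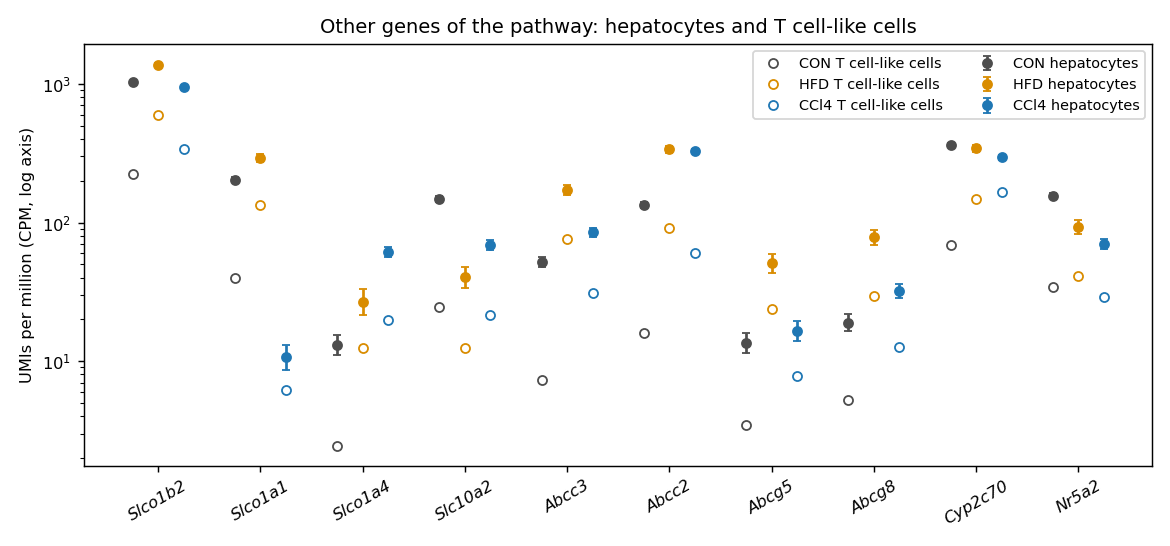
Level of 10 other genes of the pathway in CPM (log axis) in hepatocytes (filled, with exact Poisson 95% intervals) and T cell-like cells (open). Slco1a1 lies at 10.7 CPM in CCl4 against 204 in CON and 291 in HFD, and Abcc2 lies at 338 and 328 CPM in HFD and CCl4 against 133 in CON.

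The genes most alike to Cyp7a1 and Cyp8b1 were sought among 2495 genes with a mean of at least 50 CPM, by Pearson correlation of log2(CPM + 1) over 9 points, the 3 zone groups of the 3 libraries. For Cyp7a1 they were Dynlrb1 (r = 0.98), Arf5 (0.97) and Bdh1 (0.97). For Cyp8b1 they were Cebpzos (0.99), 0610005C13Rik (0.99) and Pcbp2 (0.99). The points share libraries, depth and free RNA, so these values are a description. A high r does not mean a difference of like size. In CON, HFD and CCl4, Dynlrb1 was at 145, 200 and 192 CPM, Arf5 at 195, 279 and 275, and Bdh1 at 66.2, 119 and 107. Cyp7a1 was at 9.56, 106 and 90.9 CPM, a far larger ratio to CON.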

How the data were processed

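Liver cells of 3 pooled libraries (CON, HFD and CCl4, 1 each) were compared. For each barcode, unnormalized UMI counts of every gene were deposited by the authors (Cell Ranger 7.2.0 per the file headers). The paper names mm10 and the submitters' processing notes GRCm39, so no gene coordinates are printed other than those of the RefSeq promoters (GRCm38.p6). Gene overlaps were taken from GENCODE M21, which holds 52081 of 55357 identifiers. How barcodes were chosen as cells, and whether strand was used, is not given in the sources used here.

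The libraries held 11245, 12984 and 12761 barcodes with 49613255, 34985786 and 34061186 UMIs. No barcode had under 500 UMIs or 200 genes, and 38, 1 and 0 had over 30% mitochondrial UMIs and were left out. Scrublet marked 3, 0 and 3 barcodes, too few for it to have worked, and doublets stayed in. All libraries were clustered together (2000 variable genes without the 10 genes, the pathway list and the zone genes; 30 principal components, 15 neighbours, Leiden resolution 1). Of 35 clusters, 2 were left unnamed. A class was named from 16 marker lists where at least 3 of its markers were raised. The naming rule was set after the clusters were seen. The 10 genes and all lists were chosen with earlier results of these data known.

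UMIs were summed per class and library and divided by all UMIs of the class (CPM). Intervals are exact Poisson, for ratios exact conditional, at 95%. Thinned shares are expected values at 1000 UMIs. Named pathway genes were at most the 6 furthest past 2-fold per comparison plus Slco1b2, Slco1a1, Abcc2, Cyp2c70, Hsd3b7 and Nr5a2; Abcg8, Klb and others come from that rule. The calls and intervals were tested on simulated data. Alternatives numbered 20 planned and 4 added after the data had been seen. Python 3.11.15, scanpy 1.11.5, scipy 1.17.1 and numpy 2.4.6 were used.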

Additional observations from a re-analysis of the deposited data

Results flagged for a closer look

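A pair of genes had zone gradients that pointed opposite ways in 2 libraries, in each case with intervals on opposite sides of 1. The difference itself was not tested, since each condition had 1 library. For Slc10a1 the ratio of the upper to the lower zone group was 1.56 in CON and 0.840 in HFD. For Slc27a5 it was 1.19 in CON and 0.856 in CCl4.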

How the results depend on the processing

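The background correction changed the counts of genes and the direction of some ratios. With the T cell-like level taken off, HFD against CON gave 1 gene higher and 3 lower, and CCl4 against CON 3 lower, and among the other pathway genes 7 were higher and 7 lower in HFD against CON and 5 higher and 8 lower in CCl4 against CON; Cyp27a1 turned to 0.396 in HFD against CON and Nr0b2 to 0.815 in CCl4 against CON. With the B cell-like level taken off, which was added after the data had been seen, 2 genes were lower in each comparison with CON and 1 in CCl4 against HFD. There Cyp27a1 was at 0.184 in HFD against CON and 1.21 in CCl4 against HFD, Nr0b2 at 0.521 in CCl4 against CON, and 1 gene had no value. Thinned to 1000 UMIs per cell, 1 gene was lower in HFD against CON and 2 in CCl4 against CON. In upper zone groups alone 5 genes were higher in HFD against CON, and in lower groups alone 2 were higher in CCl4 against HFD. Both counts were made with background left in. Less the T cell-like level, the upper groups of CON and HFD held 52.6 and 52.1 CPM of Cyp27a1. For Nr1h4 these were 18.6 and 18.0 CPM, so neither gene was higher there. The other genes stayed higher, with Cyp7a1 at 28.4 and 190 CPM, Cyp8b1 at 76.4 and 135, and Nr0b2 at 16.4 and 45.7. Cyp7a1, which was among those called in the lower groups, was under background there in both CCl4 and HFD. Split into 2 groups in place of 3, 1 gene was lower in the upper group of CON. Scaled outside abundant genes, 1 gene was lower in the upper group of HFD. These are 16 counts of genes, and 122 other counts stayed within 1.5 times, a limit that a change from 3 genes to 2 does not pass. Among ratios of single genes, 442 were marked as the same, 150 as moved in size and 5 as reversed in direction. Among the settings behind these 16 counts, a share of all genes is given, further above, for the T cell-like level alone. For the rest of the 16, including those in upper or lower zone groups alone, no share of all genes is given. Whether they differ from all genes was not tested. Over all alternatives the ratio of Cyp7a1 to CON stayed between 7.51 and 30.8 in HFD and between 6.57 and 55.4 in CCl4, that of Cyp7b1 in CCl4 to CON between 0.0896 and 0.162, and that of Cyp8b1 in CCl4 to CON between 3.17 and 7.16. The 30.8 came from hepatocytes chosen by their share of hepatocyte markers in place of clusters, which gave 27.1 in CCl4. Thinned to 1000 UMIs per cell, the ratios of Cyp7a1 were 21.5 in HFD and 19.9 in CCl4. With the T cell-like level taken off they were 9.09 and 6.86. The 55.4 came from the lower zone groups, where CON had 2 UMIs of Cyp7a1 and both libraries were at or under background. Without a minimum CPM, 18.9% of 17862 genes were higher and 22.2% lower in HFD against CON, since genes with few UMIs enter. The cause of the other differences was not tested. No paired analysis was possible because each condition had 1 library.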
